A study of Mus musculus with 48 samples.

Results

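The 10 genes described here are the circadian clock genes Per1, Per2, Per3, Cry1, Nr1d1, Nr1d2, Dbp, Bmal1 and Clock, together with Noct, which encodes the rhythmically expressed enzyme nocturnin. They were selected by name out of 20622 genes with cytoplasmic RNA values and 16269 genes with a ribosome-profiled transcript. All 10 were listed in both sets of files. The livers of 24 male mice were studied, 3 in each of 4 genotypes at 4 and at 10 days after virus injection. The genotypes were wild-type (WT), Ctnnb1ex3/+ (B), R26-LSL-MYC (M) and the combination of both alleles (BM). In B, Cre recombination leaves 1 allele that encodes a stabilised β-catenin, and in M it switches on a MYC transgene. Every mouse, WT included, received AAV8.TBG.PI.Cre.rBG, a virus that expresses Cre from the hepatocyte promoter TBG, so recombination was limited to hepatocytes while whole liver was measured. Each mouse gave 1 library of ribosome-protected fragments (RPFs, the stretches of mRNA covered by translating ribosomes) and 1 library of cytoplasmic RNA from the same lysate. The mice were 2 to 4 months old, lived under a 12 hour light and dark cycle with free access to food, and day 4 and day 10 mice were killed together. The clock time of the harvest is not given in the sources used here.

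As background, the mammalian clock is a transcriptional feedback loop that runs in nearly every cell, hepatocytes included. BMAL1 and CLOCK form a dimer that binds E-box elements and drives the Period and Cryptochrome genes, whose proteins return to the nucleus and block the dimer. In a connected loop the same dimer drives Nr1d1 and Nr1d2, whose products REV-ERBα and REV-ERBβ repress Bmal1 through ROR elements, and Dbp, whose product activates genes with D-boxes. In liver the phase of these genes is also set by feeding, glucocorticoids and temperature, and Per1 in particular is an immediate target of the glucocorticoid receptor. A single harvest time gives 1 point of each rhythm, so a shift in phase and a change in mean level cannot be told apart here.

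The promoters were searched for the 3 elements of the loop, and the stretches that hold a match are shown because the comparisons below follow the genes they belong to. RefSeq windows of 300 bases (250 before and 50 after the start site, mouse build GRCm38.p6) were found for 9 of the 10 genes, Bmal1 under its older symbol Arntl, with 13 windows in all. There was no window for Per2. The letters searched on both strands were CACGTG for the E-box, TTATGTAA or TTACGTAA for the D-box and TAGGTCA for the core of the ROR element, and none of them contains another. Of 32851 mouse windows 7.15% held the E-box, 1.06% a D-box and 2.61% the ROR core. Each stretch runs 5′ to 3′ on the strand of its gene, with the match in capitals.
Per1, chr11:69098699-69098948, plus strand: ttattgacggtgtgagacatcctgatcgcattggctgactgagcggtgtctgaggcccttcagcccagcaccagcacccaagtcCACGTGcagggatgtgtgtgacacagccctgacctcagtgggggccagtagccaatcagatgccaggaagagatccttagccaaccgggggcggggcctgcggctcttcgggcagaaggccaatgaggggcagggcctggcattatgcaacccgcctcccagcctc
Cry1, chr10:85185055-85185304, minus strand: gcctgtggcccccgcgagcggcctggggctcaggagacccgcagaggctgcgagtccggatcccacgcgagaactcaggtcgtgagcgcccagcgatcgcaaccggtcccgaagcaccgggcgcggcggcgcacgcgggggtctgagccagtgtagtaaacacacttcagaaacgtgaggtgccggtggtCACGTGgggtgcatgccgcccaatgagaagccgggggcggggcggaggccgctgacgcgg
Per3, chr4:151044666-151044915, minus strand: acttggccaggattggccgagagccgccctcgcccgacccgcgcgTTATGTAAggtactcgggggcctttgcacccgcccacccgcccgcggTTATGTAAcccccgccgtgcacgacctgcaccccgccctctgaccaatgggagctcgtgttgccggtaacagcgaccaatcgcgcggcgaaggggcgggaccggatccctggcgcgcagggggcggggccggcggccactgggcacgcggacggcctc
Bmal1, chr7:113207530-113207559, plus strand: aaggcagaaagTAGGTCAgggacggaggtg
Counted from the start site, the E-box began at -166 in Per1 and at -60 in Cry1. Per3 held 2 copies of the D-box, beginning at -205 and -158, and the ROR core began at 31 in 1 of the Bmal1 windows. The windows of Nr1d1, Nr1d2, Dbp, Clock and Noct held none of these letters. A match is a description of the sequence and not a shown binding site.

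RPF libraries held 9742197 to 14380713 counted reads and RNA libraries 3254141 to 6540116. The genotypes were checked on 3 genes. RNA of Glul, a β-catenin target, was at 457 to 823 CPM (read counts scaled to the library total) in WT and at 2048 to 6325 CPM in the B and BM mice. RPFs counted on Myc were at 2.42 to 18.2 CPM in WT and at 43.7 to 164 CPM in the M and BM mice, while Myc RNA, at 19.7 to 54.2 CPM over all mice, was not higher in M. The BM mice of day 10 were uneven. Mouse 1 had 29.3 CPM of Axin2 RNA, another β-catenin target, against 9.20 and 6.38 CPM in mice 2 and 3, and it stood apart from both in several clock genes, so results that rest on this group are also given without it. The 6 hepatocyte markers (Alb, Apoa1, Ttr, Serpina1a, Hnf4a, Cps1) summed to 85956 to 95033 CPM of RNA in WT, 29970 to 39999 CPM in BM of either day, 32111 to 38331 CPM in B and 39333 to 49330 CPM in M of day 10, and 64844 to 85087 CPM in B and 52474 to 70073 CPM in M of day 4. The 7 Kupffer cell markers summed to 121 to 145 CPM in BM on day 4, 324 to 370 CPM in BM on day 10 and 274 to 336 CPM in WT. Endothelial markers (386 to 431 CPM in WT, 246 to 318 in BM) and stellate cell markers (403 to 536 and 215 to 279) were lower in BM, and on day 10 also in B (301 to 364 and 231 to 306) and M (277 to 317 and 339 to 373). On day 4 both were below WT in M too (269 to 345 and 293 to 364), as were the endothelial markers in B (349 to 374), and M mouse 2 had 527 CPM of Kupffer cell markers against 236 and 174 CPM in mice 1 and 3. Cholangiocyte markers covered 80.2 to 186 CPM in all mice. Within BM of day 10, blood markers were at 195 CPM in mouse 1 and at 537 and 751 CPM in mice 2 and 3. In whole liver, fewer cells of a type and less RNA per cell cannot be told apart, and the part of cell composition in the results below was not tested.

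Per unit of length, Clock was the most abundant of the 10 genes in RNA, with a median of 35.6 TPM (transcripts scaled to their total and length) over the 24 mice. It was followed by Noct (23.3 TPM), Bmal1 (14.9 TPM), Nr1d2 (11.9 TPM), Cry1 (9.74 TPM) and Nr1d1 (4.23 TPM). Dbp (1.25 TPM), Per1 (0.690 TPM), Per2 (0.680 TPM) and Per3 (0.510 TPM) were low. In RPFs per kilobase of counted coding sequence the order changed: Bmal1 led with a median of 17.1 CPM per kb, ahead of Nr1d2 (11.5), Clock (9.21), Noct (8.23), Cry1 (7.75) and Nr1d1 (7.44), and Dbp (2.32), Per2 (0.773), Per1 (0.746) and Per3 (0.206) again came last. Every pair of neighbours in either order overlapped in its range over the 24 mice. Low levels limit what the RNA libraries can show for 4 genes, since the median library held 5 reads of Dbp, 9.5 of Per1, 10 of Per3 and 13 of Per2. Low counts kept Dbp RNA out of all 13 comparisons, Per1 RNA out of 5 and Per3 out of 5 in RNA and 8 in RPFs.

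**Figure D1:**
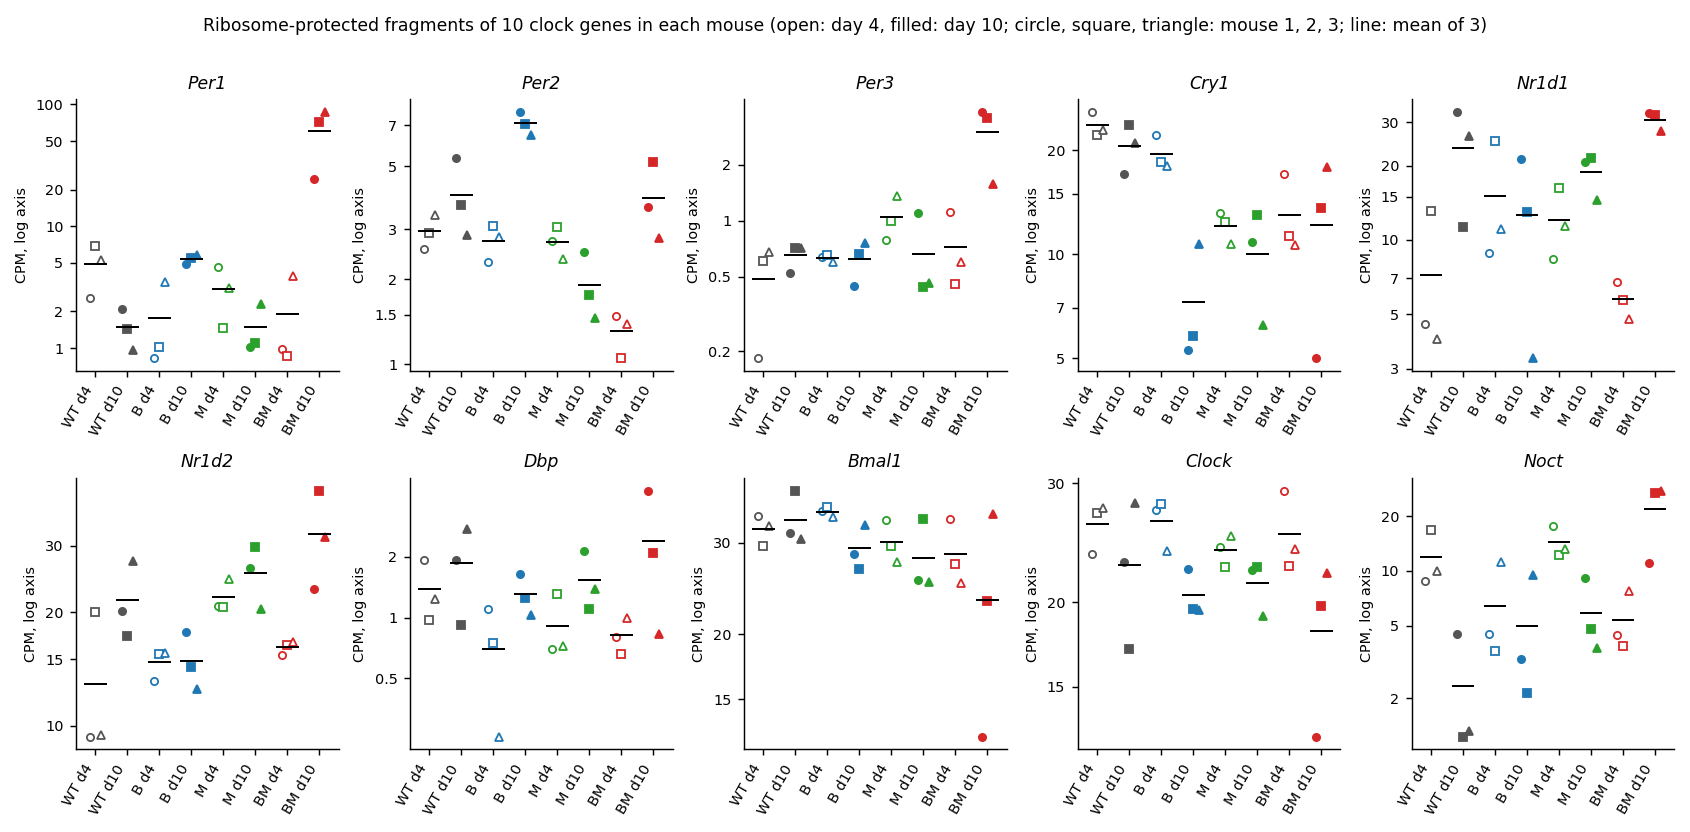
RPF level of each of the 10 genes in each of the 24 mice, in CPM on a log axis, by genotype and day (open symbols day 4, filled day 10; circle, square and triangle for mice 1, 2 and 3; line at the mean of 3). The BM mice of day 10 sit at 24.5 to 86.9 CPM of Per1, above every other mouse, and BM mouse 1 of day 10 has the lowest Bmal1, Clock and Cry1 values of the 24.

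**Figure D2:**
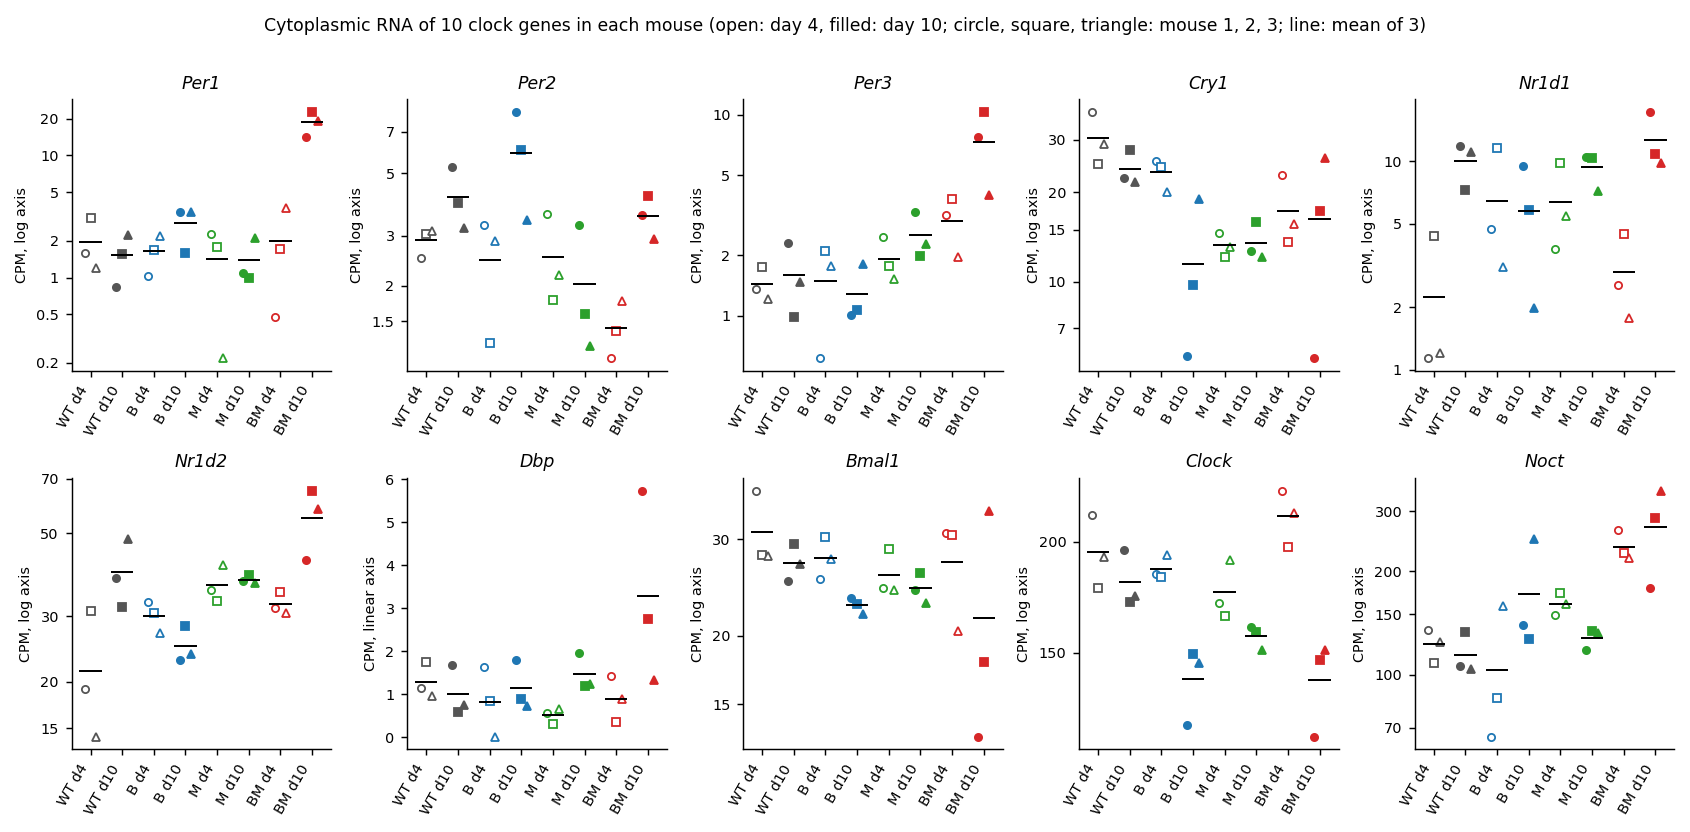
Cytoplasmic RNA level of the same genes in the same mice, in CPM (log axis, linear for Dbp, which had a mouse at 0), with the same symbols. Clock RNA covers a narrow range of 121 to 228 CPM, while Nr1d1 covers 1.14 to 17.2 CPM.

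Genotypes were compared with WT of the same day, and day 10 with day 4 within a genotype, by edgeR across all genes, and a gene was called at an adjusted p under 0.1. The 3 comparisons of a day share the same 3 WT mice. In RPFs of BM mice, 4 of the 9 members tested were called on day 4, where 50.6% of all genes tested were called, and 3 of 10 on day 10, where 46.7% were. B mice gave 4 of 9 on day 10 (25.2% of all genes) and 0 of 9 on day 4 (12.8%), with 2 members at an unadjusted p under 0.05 and 0 called by DESeq2. M mice gave 2 of 9 on day 4 (33.1%) and 2 of 9 on day 10 (18.7%). In RPFs the BM shares lay below those of all genes, so these counts do not set the members apart. In RNA the BM counts were 5 of 9 on day 4 (41.9% of all genes) and 5 of 9 on day 10 (45.9%). RNA of M mice gave 4 of 8 on day 4 (24%) and 1 of 8 on day 10 (15.5%), and RNA of B mice 1 of 7 on day 10 (15.7%) and 0 of 7 on day 4 (8.29%), with 1 member at an unadjusted p under 0.05, 0 called by DESeq2, 2 with no filter on low counts and 1 with the replicate number as a block. In RPFs of B mice on day 4 the block gave 2. The BM counts of day 10 without BM mouse 1 were 5 of 10 in RPFs (66.2% of all genes) and 5 of 9 in RNA (57.2%).

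Between day 4 and day 10 BM mice had the most calls, with 7 of 10 called in RPFs (44.9% of all genes) and 6 of 9 in RNA (39.4%). WT mice, which differed by design only in the days since injection, had 2 of 9 members called in RPFs (4.63% of all genes) and 1 of 7 in RNA (2.23%). In B mice the counts were 4 of 9 in RPFs (34.5%) and 2 of 8 in RNA (15.5%). M mice had 0 of 10 in RPFs (1.16%) and 0 of 8 in RNA (0.707%), with 2 and 1 members at an unadjusted p under 0.05 and 1 and 0 called by DESeq2. Leaving out BM mouse 1 of day 10, BM mice had 7 of 10 members called in RPFs (68.6% of all genes) and 7 of 9 in RNA (55.4%). The difference between the effect of a genotype on day 10 and on day 4 was called for 3 of 10 members in BM RPFs (35.5% of all genes), 3 of 9 in B RPFs (16.9%), 2 of 9 in BM RNA (29.6%) and 1 of 9 in B RNA (9.18%). For M it was called for 0 of 10 members in RPFs (1.26%) and 0 of 9 in RNA (0.822%), with 1 and 2 at an unadjusted p under 0.05 and 0 in both by DESeq2.

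**Figure D3:**
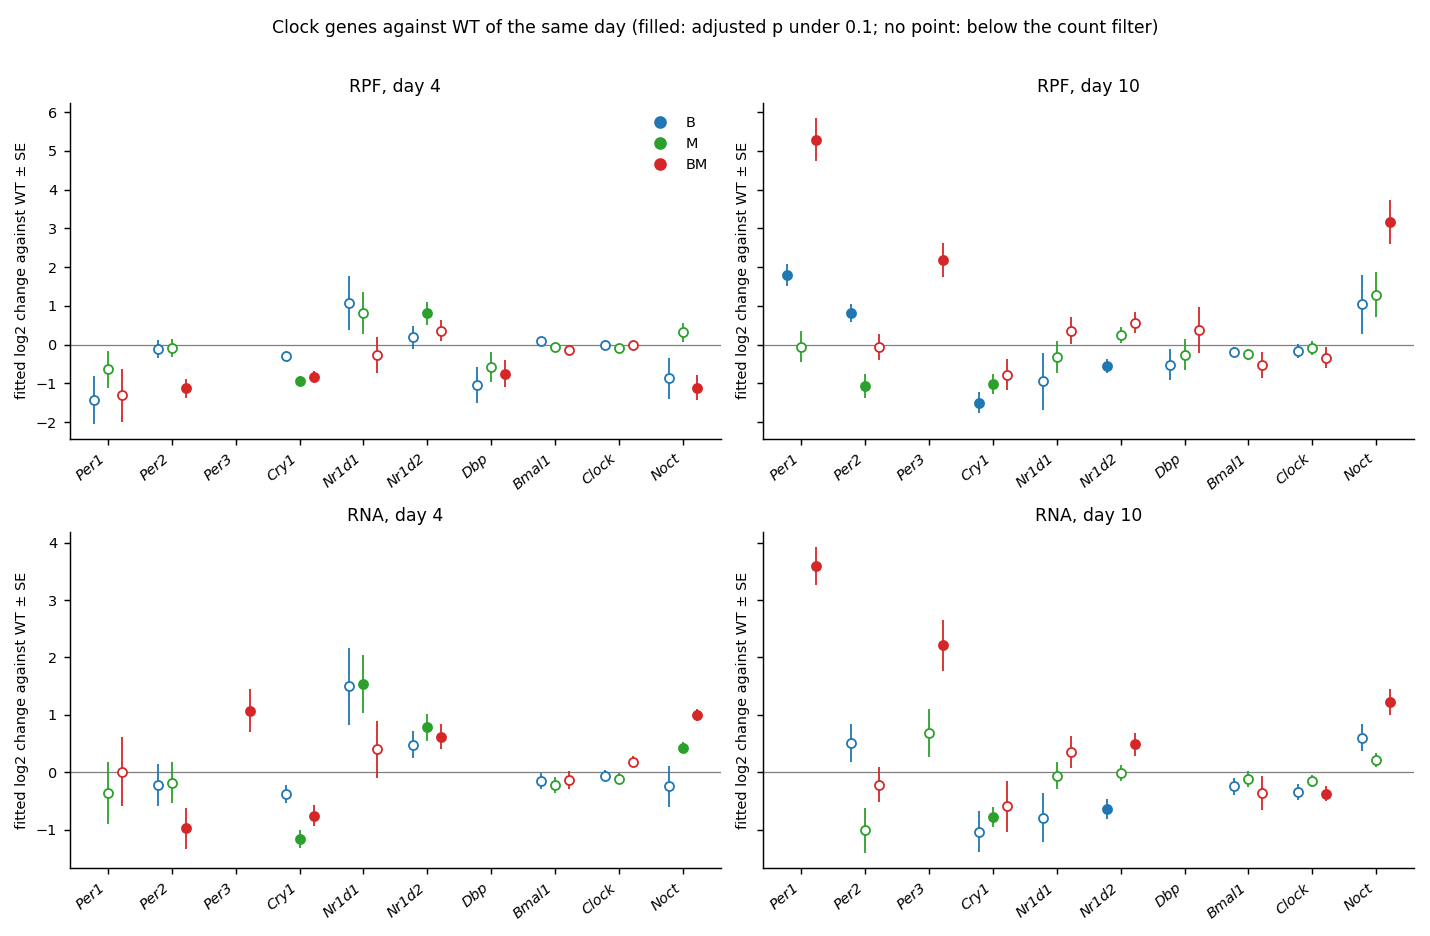
Fitted log2 change against WT of the same day (vertical axis, with its standard error) for each gene in B, M and BM mice, in RPFs (upper panels) and RNA (lower panels) on day 4 (left) and day 10 (right). Filled points passed an adjusted p under 0.1 and a missing point marks a gene below the count filter. Per1, Per3 and Noct of BM mice on day 10 stand above all other points in the RPF panels, and Cry1 lies below 0 in every panel.

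The Period genes encode the repressors that close the loop, and Per1 (chr11:68986035-69002300, plus strand, GRCm39) made the largest change of any member. WT mice of day 10 had 2.10, 1.42 and 0.958 RPF CPM, and BM mice 24.5, 71.1 and 86.9 RPF CPM. All BM mice lay far above WT, mouse 1 as the lowest of them included. The fitted log2 change was 5.29 (SE 0.56, adjusted p = 0.00069). It was 5.65 without BM mouse 1, and leaving out any 1 mouse kept it between 4.94 and 5.65 and called. RNA showed the same direction with a smaller change, from 0.841, 1.57 and 2.21 CPM in WT to 14.3, 22.8 and 19.1 CPM in BM (log2 change 3.59, SE 0.33, adjusted p = 8.9e-05, and 3.76 without BM mouse 1). The B mice of day 10 also lay above WT in Per1 RPFs, at 4.90, 5.44 and 5.86 CPM (log2 change 1.80, SE 0.28, adjusted p = 0.0024), and their RNA was below the count filter in this comparison.

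On day 4 Per1 RPFs pointed the other way without passing the test. The WT mice had 2.56, 6.91 and 5.30 CPM, the B mice 0.825, 1.02 and 3.50 CPM and the BM mice 0.988, 0.854 and 3.92 CPM, which overlap WT in both cases. The log2 changes of -1.42 in B (SE 0.62, adjusted p = 0.27) and -1.31 in BM (SE 0.68, adjusted p = 0.18) were not called. Both were called with the replicate number as a block (-1.51, adjusted p = 0.044, and -1.41, adjusted p = 0.056), although that number does not pair mice of different groups. Between the days Per1 RPFs fell in WT, with a log2 change of -1.65 (SE 0.39, adjusted p = 0.047), and rose in B by 1.57 (SE 0.45, adjusted p = 0.036) and in BM by 4.96 (SE 0.72, adjusted p = 0.0032, and 5.34 without BM mouse 1 of day 10). The fall in WT was no longer called without WT mouse 2 or 3 of either day (log2 change -1.58 to -1.33, adjusted p 0.11 to 0.15), and the rise in B not without B mouse 2 of day 4 (1.298, adjusted p = 0.11).

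Per2 (chr1:91343700-91387069, minus strand) changed in both directions. On day 4 the BM mice had 1.48, 1.05 and 1.39 RPF CPM, all below the WT mice at 2.56, 2.91 and 3.38 CPM (log2 change -1.13, SE 0.25, adjusted p = 0.0026), and their RNA fell by 0.98 (SE 0.36, adjusted p = 0.042). On day 10 the B mice had 7.80, 7.06 and 6.48 RPF CPM, all above WT at 5.35, 3.66 and 2.87 CPM (log2 change 0.81, SE 0.23, adjusted p = 0.039), while the M mice, at 2.49, 1.76 and 1.46 CPM, were all below WT (-1.06, SE 0.30, adjusted p = 0.050). The BM mice of day 10, at 3.61, 5.19 and 2.80 CPM, overlapped WT (log2 change -0.061, SE 0.33, adjusted p = 0.90). From day 4 to day 10 Per2 RPFs rose in B (1.37, SE 0.19, adjusted p = 0.0019) and in BM (1.52, SE 0.30, adjusted p = 0.0098), and so did RNA (1.24 in B and 1.298 in BM, adjusted p = 0.069 and 0.017). The rises in BM were 1.58 in RPFs and 1.27 in RNA without BM mouse 1 of day 10, both called. Several of these calls rest on single mice. The B change of day 10 was lost without B mouse 2 or WT mouse 3 (0.81 and 0.63, adjusted p 0.10 to 0.14), and the M change without M mouse 2 or WT mouse 1 (-1.01 to -0.76, adjusted p 0.13 to 0.18). The RNA fall of day 4 was lost without BM mouse 1 or WT mouse 2 or 3 (-0.93 to -0.81) or with DESeq2 (adjusted p = 0.17), and the RNA rise in B without any of its mice but mouse 3 of day 10 (0.92 to 1.50).

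Per3 (chr4:151081373-151129140, minus strand), which encodes a Period protein with a lesser role in keeping time, was the rarest member. Its promoter holds both D-boxes shown above. BM mice of day 10 had 3.84, 3.56 and 1.57 RPF CPM, all above WT at 0.526, 0.711 and 0.718 CPM (log2 change 2.19, SE 0.44, adjusted p = 0.0074). Their RNA was at 7.72, 10.4 and 3.99 CPM against 2.31, 0.980 and 1.48 CPM in WT (log2 change 2.21, SE 0.44, adjusted p = 0.0046). Both calls held without BM mouse 1 (1.97 in RPFs and 2.18 in RNA). Per3 of BM also rose between the days, by 2.01 in RPFs (SE 0.46, adjusted p = 0.015) and by 1.29 in RNA (SE 0.39, adjusted p = 0.033), the latter lost without BM mouse 2 of day 10 or BM mouse 3 of day 4 (0.98 and 1.04). Both were called without BM mouse 1 of day 10 (1.79 and 1.23). On day 4 the RNA of BM mice, at 3.17, 3.802 and 1.95 CPM, was also above WT at 1.36, 1.75 and 1.21 CPM (log2 change 1.07, SE 0.38, adjusted p = 0.038), a call lost without BM mouse 2 or WT mouse 1 or 3 (0.88 to 1.02, adjusted p 0.10 to 0.13) and with DESeq2 (adjusted p = 0.14). The RPFs of Per3 in B and M against WT, and in BM on day 4, were below the count filter. The annotated exons of Per3 overlap 154 exonic bases of Uts2 on the other strand.

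Cry1 (chr10:84967560-85021252, minus strand), the gene of the strongest repressor of the BMAL1 and CLOCK dimer, was the member that fell most often. On day 4 the WT mice had 25.9, 22.2 and 22.9 RPF CPM. The M mice had 13.2, 12.4 and 10.7 CPM and the BM mice 17.1, 11.3 and 10.6 CPM, all below WT, with log2 changes of -0.94 (SE 0.12, adjusted p = 0.00013) and -0.84 (SE 0.16, adjusted p = 0.0013). RNA fell by 1.16 in M (SE 0.16, adjusted p = 8.3e-05) and by 0.76 in BM (SE 0.19, adjusted p = 0.0057, or 0.12 with all 8 groups in 1 fit). The B mice of day 4 overlapped WT in part, at 22.2, 18.5 and 18 CPM (log2 change -0.29, SE 0.12, adjusted p = 0.17).

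By day 10 the B mice were lower as well. Their RPFs were at 5.27, 5.81 and 10.7 CPM against 17.1, 23.7 and 21.0 CPM in WT (log2 change -1.50, SE 0.28, adjusted p = 0.0083), and RPFs of B fell between the days by 1.42 (SE 0.26, adjusted p = 0.0082). Cry1 RNA of these mice, at 5.62, 9.77 and 19.1 CPM against 22.3, 27.8 and 21.6 CPM in WT, had a log2 change of -1.04 (SE 0.35) that missed the threshold (adjusted p = 0.10). It passed with DESeq2 (adjusted p = 0.015), with all 8 groups in 1 fit (adjusted p = 0.082) and with the replicate number as a block (adjusted p = 0.057). The RNA fall in B between the days was not called, but was by DESeq2 (-1.02, adjusted p = 0.019). Mouse 3 of B on day 10 had the highest Cry1 and the lowest Nr1d1 of the 3. M mice were below WT in RPFs (10.8, 12.99 and 6.24 CPM, log2 change -1.03, SE 0.26, adjusted p = 0.041) and in RNA (12.7, 15.9 and 12.1 CPM, -0.78, SE 0.17, adjusted p = 0.0096, or 0.21 with all 8 groups in 1 fit). The RPF call in M was lost without M mouse 1 or WT mouse 2 or 3 (-1.09 to -0.91, adjusted p 0.10 to 0.12). The BM mice of day 10 spread from 5.00 to 17.9 RPF CPM, and their change of -0.77 (SE 0.41, adjusted p = 0.17) was not called, but was with all 8 groups in 1 fit (adjusted p = 0.062). Without mouse 1, at 5.00 CPM, it was smaller but called (-0.40, adjusted p = 0.070).

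Nr1d1 (chr11:98658752-98666188, minus strand) and Nr1d2 (chr14:4230545-4266624, plus strand) encode the REV-ERB repressors, and Nr1d1 has one of the steepest rhythms known in liver. Its level differed widely between mice of the same group. WT mice of day 4 had 4.57, 13.1 and 3.95 RPF CPM and those of day 10 had 33.1, 11.3 and 26.5 RPF CPM. These RPF values overlapped and their change was not called. RNA of the same mice rose from 1.14, 4.37 and 1.21 CPM to 11.8, 7.25 and 11.1 CPM (log2 change 2.13, SE 0.40, adjusted p = 0.021). That call was lost with all 8 groups in 1 fit (adjusted p = 0.19) and with the replicate number as a block (adjusted p = 0.10). BM mice rose too, from 2.54, 4.49 and 1.77 to 17.2, 10.8 and 9.84 CPM (2.09, SE 0.36, adjusted p = 0.0033), and the difference between both rises, -0.034, had a wide error (SE 0.59, adjusted p = 0.98). In RPFs the rise in BM was 2.39 (SE 0.18, adjusted p = 0.00034), from 6.73, 5.72 and 4.78 CPM to 32.7, 32.1 and 27.6 CPM. The rise was 1.75 in RNA and 2.35 in RPFs without BM mouse 1 of day 10, both called. M mice of day 4 lay above WT in Nr1d1 RNA at 3.79, 9.77 and 5.46 CPM with an overlap (1.54, SE 0.51, adjusted p = 0.062), and that call was lost without M mouse 2, the mouse with the most Kupffer cell markers, or WT mouse 1 or 3 (1.04 to 1.25, adjusted p 0.18 to 0.21). The B mice of day 4, at 4.70, 11.5 and 3.09 RNA CPM, also overlapped the highest WT mouse. Their change of 1.49 (SE 0.68, adjusted p = 0.33) was not called, but it was with no filter on low counts (adjusted p = 0.0025) and with the replicate number as a block (1.53, adjusted p = 0.0075), although that number does not pair mice of different groups. Nr1d1 shares 1694 exonic bases, 1238 of them coding, with Thra on the other strand. Whether the RNA counting used strand is not given in the sources used here, so reads of the overlap may belong to either gene.

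Nr1d2 moved less. On day 4 its RNA change in B, 0.48 (SE 0.24, adjusted p = 0.35), was called only with no filter on low counts (adjusted p = 0.022). Its RNA was higher in M of day 4, at 35.2, 33.0 and 41.1 CPM, than in WT, at 19.1, 31.0 and 14.2 CPM (log2 change 0.78, SE 0.23, adjusted p = 0.044), and RPFs followed (0.81, SE 0.30, adjusted p = 0.096). BM mice of day 4, at 31.6, 34.7 and 30.5 CPM, were above WT in the fit but overlapped the highest WT mouse (0.62, SE 0.22, adjusted p = 0.045). On day 10 the B mice, at 22.9, 28.2 and 23.7 CPM of RNA, were all below WT at 38.1, 31.7 and 48.2 CPM (-0.63, SE 0.18, adjusted p = 0.032), and RPFs fell by 0.56 (SE 0.19, adjusted p = 0.070). The BM mice went the other way at 42.4, 65.1 and 58.0 CPM (0.48, SE 0.20, adjusted p = 0.088), and without mouse 1 both RNA (0.64, adjusted p = 0.0059) and RPFs (0.76, adjusted p = 0.0053) were called. Between the days Nr1d2 rose in BM by 0.74 in RNA and 0.96 in RPFs (adjusted p = 0.0099 and 0.018), or by 0.88 and 1.16 without BM mouse 1 of day 10. In WT the changes were of like size, 0.87 in RNA (SE 0.27, adjusted p = 0.22) and 0.74 in RPFs (SE 0.34, adjusted p = 0.35). Both were called by DESeq2 (adjusted p = 0.023 and 0.082), the RNA change also with no filter and with all 8 groups in 1 fit (adjusted p = 3.4e-06 and 0.071). All calls of Nr1d2 against WT were lost without some single mouse. On day 4 these were M mouse 1 or 3 or WT mouse 1 for M RNA (0.69 to 0.80). They were any mouse but WT mouse 2 for M RPFs (0.61 to 0.85) and BM mouse 2 or WT mouse 1 or 3 for BM RNA (0.40 to 0.57). On day 10 they were WT mouse 3 for B RNA (-0.48). They were B mouse 2 or 3 or WT mouse 1 or 3 for B RPFs (-0.61 to -0.36) and BM mouse 2 or 3 or WT mouse 1 or 2 for BM RNA (0.31 to 0.46).

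Dbp (chr7:45354512-45359627, plus strand) encodes an activator of D-box genes and is among the strongest output genes of the liver clock, but at this harvest it was close to the limit of detection. The RNA libraries held 0 to 29 reads of it, and the count filter kept its RNA out of the fits. The RNA of BM mice of day 10, at 5.74, 2.76 and 1.33 CPM against 1.68, 0.588 and 0.738 CPM in WT and 1.43, 0.346 and 0.887 CPM in BM of day 4, overlapped both groups in its lowest mouse. With no filter it was called higher than in WT (log2 change 1.73, SE 0.57, adjusted p = 0.035) and than in BM of day 4 (1.88, SE 0.57, adjusted p = 0.031), and the effect of BM differed between the days by 2.22 (SE 0.82, adjusted p = 0.070). All 8 groups in 1 fit gave the same 3 calls (1.74, 1.89 and 2.25). No value was computed without BM mouse 1, the highest, since Dbp RNA was then below the filter in all 3 comparisons. Its RPFs ranged from 0.256 to 4.25 CPM, with the highest value in BM mouse 1 of day 10, where the other 2 mice had 2.09 and 0.824 CPM. The edgeR fit called Dbp RPFs lower in BM on day 4, at 0.803, 0.657 and 0.995 CPM against 1.92, 0.969 and 1.24 CPM in WT (-0.76, SE 0.35, adjusted p = 0.098), and higher in BM on day 10 than on day 4 (1.53, SE 0.57, adjusted p = 0.073). The first was lost without any mouse but WT mouse 2 (-0.91 to -0.41) and the second without any but BM mouse 3 of day 10 (0.82 to 1.69), and the call of day 4 was also lost with DESeq2 (adjusted p = 0.28). Neither RPF call held in every refit. Its exons overlap 539 exonic bases of Sphk2.

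Bmal1 (chr7:112806152-112914735, plus strand) and Clock (chr5:76342860-76452846, minus strand), the genes of the activating dimer, moved least. Bmal1 was called in none of 13 comparisons in either RPFs or RNA with edgeR, nor with DESeq2. The lowest unadjusted p, 0.0487, belonged to its RPFs in B between the days (-0.24, SE 0.11). Its RNA ranged from 20.4 to 36.8 CPM in all mice but mice 1 and 2 of BM on day 10, at 13.1 and 17.9 CPM, while the third mouse of that group had 33.8 CPM. The change of BM against WT on day 10 was -0.36 in RNA (SE 0.30, adjusted p = 0.37) and -0.53 in RPFs (SE 0.33, adjusted p = 0.24). Without mouse 1 it was -0.11 and -0.23, and without mouse 3 it was -0.81 and -0.91 and called (adjusted p = 0.018 and 0.045), so single mice of this group set the result. With all 8 groups in 1 fit the RPF change was also called (-0.52, adjusted p = 0.049).

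Clock RNA fell between the days in BM and in B. In BM it went from 228, 197 and 215 CPM on day 4 to 121, 147 and 151 CPM on day 10 (log2 change -0.64, SE 0.12, adjusted p = 0.0052, and -0.58 without BM mouse 1 of day 10), and in B from 184, 183 and 193 to 124, 149 and 146 CPM (-0.41, SE 0.12, adjusted p = 0.045). WT mice went from 214, 177 and 192 to 196, 171 and 174 CPM, which was not called (-0.10, SE 0.11, adjusted p = 0.80). The effect of BM differed between the days by -0.54 (SE 0.16, adjusted p = 0.029, and -0.45 without that mouse), and for B that difference, -0.27 (SE 0.16, adjusted p = 0.40), was not called. Against WT of day 10 the BM mice were lower by 0.37 (SE 0.13, adjusted p = 0.052), a call lost without BM mouse 2 or WT mouse 1 or 3 (-0.43 to -0.35, adjusted p 0.11 to 0.15) and kept without BM mouse 1 (-0.29). In RPFs Clock was called in B between the days (-0.37, SE 0.11, adjusted p = 0.042), a call lost without B mouse 1 or 2 of day 4 or B mouse 2 of day 10 (-0.34 to -0.33, adjusted p 0.13) and with all 8 groups in 1 fit (adjusted p = 0.14). The RPF change of Clock in BM between the days was called without BM mouse 1 of day 10 (-0.30, adjusted p = 0.077) and with all 8 groups in 1 fit (-0.48, adjusted p = 0.024). Without any 1 of the B mice of day 4 the RNA fall in B was also lost (-0.43 to -0.39, adjusted p 0.14 to 0.16). Clock shares 2047 exonic bases with Tmem165 on the other strand.

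Noct (chr3:51128616-51159065, plus strand) encodes a phosphatase of the deadenylase family whose RNA peaks at the start of the night in liver. The RPFs of Noct were counted on a transcript of 2 exons whose first exon is 7869 bases long (ENSMUST00000144826, first exon chr3:51147627-51155495), the most abundant Noct transcript in the RNA libraries. That exon begins inside an intron of the spliced transcript of 3 exons (ENSMUST00000023849). Both share 1095 coding bases in the same frame, and all 1005 bases on which footprints were counted lie in the coding sequence of both, so the footprints cannot be assigned to either. Their annotated coding sequences differ in where they start, shown here as the first 30 coding bases of each on GRCm39 with the start codon in capitals. The use of either start was not tested.
Noct, transcript with the long first exon, chr3:51155234-51155263, plus strand: ATGggaaacggcaccagtcgactctacagt
Noct, spliced transcript, chr3:51132525-51132554, plus strand: ATGtatcagagcccgcggcggctctgctcg
The spliced transcript adds 192 coding bases at its start. In RNA the transcript with the long first exon took 94.5% to 99.1% of the Noct reads of a library, and the spliced one held only 4 to 76 reads.

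Noct footprints and Noct RNA went different ways in several comparisons. WT mice had 8.78, 16.8 and 10.0 RPF CPM on day 4 and 4.47, 1.22 and 1.32 CPM on day 10, a fall of 2.27 on the log2 scale (SE 0.51, adjusted p = 0.094) that was lost without any mouse but WT mouse 1 of day 10 (-2.45 to -1.94, adjusted p 0.11 to 0.19) although both groups did not overlap. RNA of the same mice, at 135, 108 and 125 CPM and then 106, 133 and 104 CPM, showed no called change (-0.088, SE 0.13, adjusted p = 0.86). BM mice did the reverse in RPFs, with 4.45, 3.88 and 7.76 CPM on day 4 and 11.0, 26.9 and 27.6 CPM on day 10 (log2 change 1.99, SE 0.42, adjusted p = 0.012, and 2.32 without BM mouse 1 of day 10). BM was below WT on day 4 (-1.11, SE 0.34, adjusted p = 0.030, lost without BM mouse 1 at -0.98, adjusted p = 0.14) and above WT on day 10 (3.16, SE 0.56, adjusted p = 0.0048, and 3.45 without BM mouse 1). The difference between the 2 effects, 4.29 (SE 0.71, adjusted p = 0.0015, and 4.55 without that mouse), was called. Noct RNA of BM, in contrast, was above WT on both days, at 264, 226 and 219 CPM on day 4 (0.99, SE 0.10, adjusted p = 1.6e-06, but -0.35, adjusted p = 0.45, for the spliced transcript alone) and 180, 287 and 344 CPM on day 10 (1.23, SE 0.23, adjusted p = 0.0030, and 1.44 without BM mouse 1). Its RNA change between the days, 0.16 (adjusted p = 0.58), was called without that mouse (0.36, adjusted p = 0.012). M mice of day 4 were also above WT in RNA, at 149, 173 and 161 CPM (0.43, SE 0.10, adjusted p = 0.0066, lost with all 8 groups in 1 fit, adjusted p = 0.43, and for the spliced transcript, 0.11, adjusted p = 0.86), with RPFs at 17.6, 12.3 and 13.3 CPM (0.32, SE 0.25, adjusted p = 0.41). On day 10 Noct of M and B was not called against WT. DESeq2 and the replicate block called its RPFs higher in M (1.32 and 1.42, adjusted p = 0.050 and 0.018). DESeq2 also called its RNA higher in B (0.60, adjusted p = 0.083). Between the days DESeq2 called a fall of RPFs in M (-1.28, adjusted p = 0.0048) and the block a rise of RNA in B (0.77, adjusted p = 0.0025).

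Translational efficiency (TE) was tested as the change of RPFs relative to that of RNA in 1 fit over both libraries. Of 104 such tests of members, 2 were called, both of Noct. TE of Noct was lower in BM than in WT on day 4 (log2 change -2.09, SE 0.36, adjusted p = 0.018), where 2.22% of all genes were called, and the effect of BM on TE differed between the days by 4.02 (SE 0.78, adjusted p = 0.033), where 0.319% were. With mouse as a block the first had an adjusted p of 0.13, where 6.3% of all genes were then called, and the second one of 0.047, where 1.78% were. The block added calls of Noct for BM between the days (1.79, adjusted p = 0.011), BM on day 10 (1.89, adjusted p = 0.056) and B between the days (-1.15, adjusted p = 0.027). It raised the calls over all genes in these 3 comparisons as well, from 0.496% to 3.18%, from 0.259% to 5.08% and from 0.936% to 7.3%. Of the 6 TE tests of members with an unadjusted p under 0.05 all were of Noct, and DESeq2 called 2 more of them, BM and WT between the days (1.83 and -2.24). The TE call of day 4 was lost without BM mouse 1 or WT mouse 3 (-1.89 and -2.21, adjusted p 0.10 to 0.11), and the difference between the days without BM mouse 2 or WT mouse 2 of day 10 or BM mouse 1 or WT mouse 2 of day 4 (3.59 to 3.86, adjusted p 0.13 to 0.16). Among the other members the lowest unadjusted p was that of Per1 in BM on day 10 (log2 change 1.68, SE 0.81, adjusted p = 0.51), which was called without BM mouse 1 (1.88, adjusted p = 0.013). That refit also called Noct on day 10 (2.00, adjusted p = 0.021), and 22% of all genes against 0.259% with all mice. Between the days the TE change of Noct in BM was called without the same mouse (1.96, adjusted p = 0.00082), where 24.3% of all genes were, and the difference between the effects was 4.07 (adjusted p = 0.00098), where 12.8% were.

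The TE values of Noct depend on which RNA the footprints are set against. Counts of the spliced transcript were 3.87, 4.58 and 1.93 CPM in WT and 2.38, 2.59 and 3.02 CPM in BM on day 4, and 1.47, 1.37 and 1.23 CPM in WT and 4.95, 5.98 and 6.91 CPM in BM on day 10. Set against this transcript alone, the TE change of BM was -0.75 on day 4 (adjusted p = 0.78), 1.06 on day 10 (adjusted p = 0.70) and 0.87 from day 4 to day 10 (adjusted p = 0.74). The effect of BM differed between the days by 1.82 (adjusted p = 0.76). None of these was called. The RNA of the spliced transcript rose in BM against WT on day 10 by 2.09 on the log2 scale (adjusted p = 0.00095), as did all Noct RNA (1.23), and on day 4 its change was -0.35 (adjusted p = 0.45). Over the 24 mice, with group means removed, footprints followed the spliced transcript with Pearson's r = 0.73 (Spearman's rho 0.72) and the long one with r = 0.51 (rho 0.38), or 0.75 and 0.41 without BM mouse 1 of day 10. This is a description, since both RNA values come from the same library. The lowest library held 4 reads of the spliced transcript, and its comparison was added after the data had been seen.

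**Figure D4:**
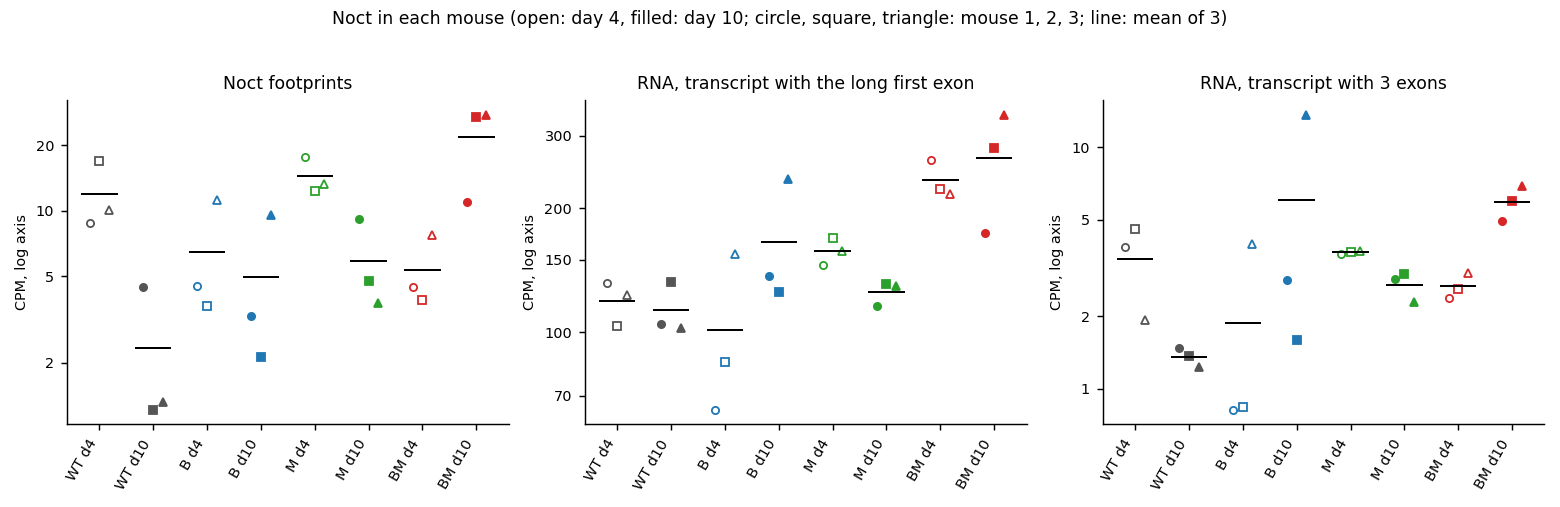
Noct in each mouse, in CPM on log axes: footprints (left), RNA of the transcript with the long first exon (middle) and RNA of the spliced transcript with 3 exons (right), by genotype and day (open symbols day 4, filled day 10, line at the mean of 3 mice). WT footprints drop from 8.78 to 16.8 CPM on day 4 to 1.22 to 4.47 CPM on day 10 with little change in the middle panel. The BM mice of day 10, at 11.0 to 27.6 CPM of footprints, are above WT of day 10 in all 3 panels.

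Mice of the same genotype and day differed more in several clock genes than in most genes. The SD between mice of a group, pooled over the 8 groups on the log2 scale, was 0.69 for Nr1d1 RNA and 0.53 for Cry1 RNA, above 99.2% and 98.0% of the 9426 genes with a mean of at least 5 CPM, whose median SD was 0.21. Nr1d1 RNA lay close to that floor, with a mean of 6.96 CPM, and counting error adds to its spread. The ranks were not matched for level. Noct RNA stood at the 90.6th percentile, while Nr1d2 (73.3), Bmal1 (80.0) and above all Clock (7.18) were within the common range. In RPFs Nr1d1 (SD 0.71), Noct (0.69) and Cry1 (0.45) were above 99.1%, 98.9% and 95.1% of 8449 genes. Nr1d2 (86.2), Bmal1 (80.6) and Clock (63.3) stood at lower percentiles. Clock was more even between mice than most genes in RNA (SD 0.12), but not in RPFs (SD 0.22, median of all genes 0.19). Without BM mouse 1 of day 10 the SD of Cry1 fell to 0.39 in RNA and 0.33 in RPFs, at percentiles 95.2 and 92.9, and Nr1d1 kept 0.69 and 0.74. Per2, Per3 and Dbp, and Per1 in RNA, had means below 5 CPM and were not ranked, because counting error alone widens their spread. Per1 RPFs (SD 0.70) passed that level only through the BM mice of day 10, the other group means being 1.48 to 5.40 CPM, and are not ranked either.

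**Figure D5:**
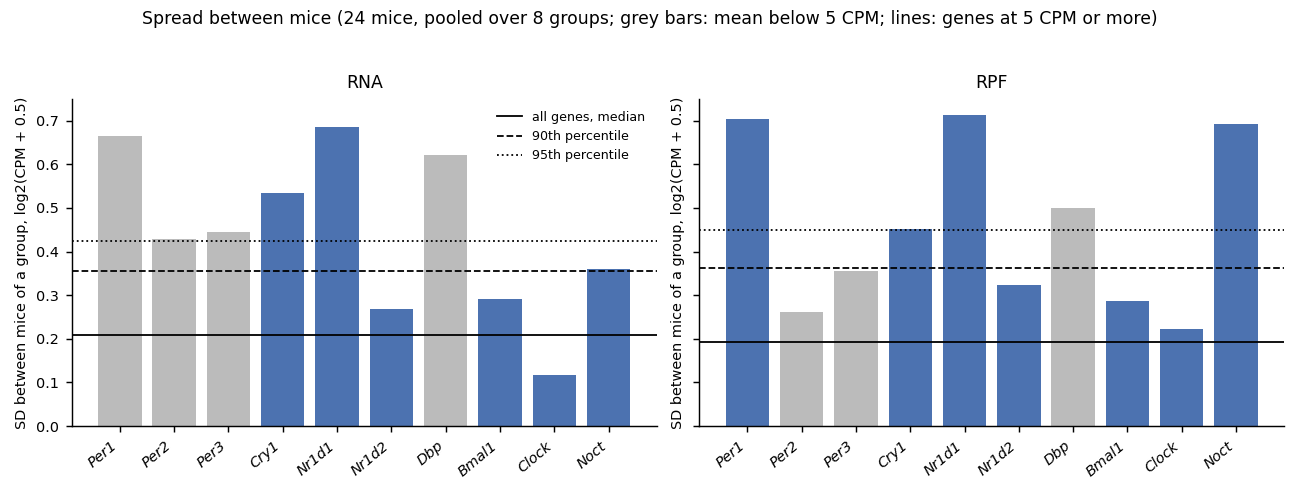
SD between mice of the same group on the log2 scale, pooled over 8 groups of 3 mice, for each gene in RNA (left) and RPFs (right), with the median, the 90th and the 95th percentile of all genes at 5 CPM or more as lines. Grey bars are genes below 5 CPM, and Per1 RPFs exceed it only through the BM mice of day 10. Nr1d1 and Cry1 exceed the 95th percentile in both panels and Clock lies at 0.12 in RNA, below the median of 0.21. In RPFs Clock lies at 0.22, above the median of 0.19.

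The deviations of single mice from their group were shared between some members. Over the 24 mice, with group means removed, Cry1 and Bmal1 RPFs deviated together (Pearson's r = 0.88, Spearman's rho 0.83), and so did Nr1d1 and Nr1d2 (r = 0.60, rho 0.57) and Per1 and Noct (r = 0.62, rho 0.59). Without the 2 mice farthest from the median of the first gene r was 0.77, 0.59 and 0.55, and without BM mouse 1 of day 10 it was 0.74, 0.68 and 0.54. In RNA the same pairs were less alike, with r = 0.60 (rho 0.28, and r = 0.092 without the 2 farthest mice), 0.34 and 0.17. The other RPF pairs beyond 0.6 in size both held Dbp and were negative, with Bmal1 (r = -0.69, rho -0.43) and with Per1 (r = -0.62, rho -0.59). Without BM mouse 1 both were -0.49, and without the 2 farthest mice they were -0.34 and -0.66. In RNA the pairs beyond 0.6 were Dbp and Noct (r = -0.75, rho -0.66), where Dbp rests on a median of 5 reads, and Cry1 and Clock (r = 0.70, rho 0.65, and r = 0.55 without BM mouse 1). Cry1 and Nr1d1, whose rhythms run in opposite phase in liver, had r = -0.55 in RNA (rho -0.49) and -0.33 in RPFs (rho -0.31). The RNA value was -0.60 without the 2 farthest mice, -0.58 without BM mouse 1, and -0.32 without BM mouse 1 and the 2 mice then farthest. RNA and footprints of the same mouse matched best for Cry1 (r = 0.90), Nr1d1 (0.89), Bmal1 (0.82) and Nr1d2 (0.78), less for Dbp (0.66) and Noct (0.53), and least for Per2 (0.42), Per1 (0.41), Clock (0.37) and Per3 (0.33). The last value of Clock rested on BM mouse 1 (0.036 without it). These are 45 pairs in each readout and they share libraries and depth, so they describe these mice and were not tested. Among 9420 other genes the RNA deviations most like those of Bmal1 were of Cobll1 (0.81), Pim1 (0.79), Nop14 (0.79), Polrmt (0.78) and Slc25a12 (0.78), and those most like Noct were of Or5w19, Creb1 and Rab6a (all 0.80), Snrpb (0.79) and Edem3 (0.78). Without BM mouse 1 of day 10 Or5w19 kept rank 1 for Noct, and Slc25a12 fell to rank 63 for Bmal1. The same ranking for Dbp is not given, because its RNA rests on a median of 5 reads.

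Of 25 other genes of the clock and its output, 10 rose and 2 fell among 21 tested in RPFs of BM mice on day 10 (median log2 change 0.59, against 0.03 over all genes), and 7 rose and 2 fell among 19 in RNA (median 0.40, against 0.04). With 46.7% of all genes called in RPFs and 45.9% in RNA, the number of called genes lay near the background. Leaving out BM mouse 1, 12 rose and 3 fell of 22 in RPFs (median 0.57, 66.2% of all genes called) and 8 rose and 3 fell of 20 in RNA (median 0.46, 57.2%). Ciart, a repressor of the dimer, rose by 5.73 in RPFs (SE 0.65, adjusted p = 0.00093), and Usp2, a deubiquitinase under clock control, by 3.98 (SE 0.28, adjusted p = 0.00011), or by 6.09 and 4.14 without BM mouse 1. Rbm3, a cold-inducible RNA-binding protein, rose by 3.70 in RNA (SE 0.26, adjusted p = 2.6e-05) and Por, the P450 reductase, by 3.53 (SE 0.34, adjusted p = 0.00020), or by 3.94 and 3.85 without that mouse. Npas2, a partner of BMAL1 that can replace CLOCK, fell by 2.96 in RPFs (SE 0.73, adjusted p = 0.017, and -4.77 without BM mouse 1) and Rora, an activator of Bmal1, by 0.94 (SE 0.18, adjusted p = 0.0060, and -0.84 without it). On day 4 the list went both ways, with 7 up and 6 down of 20 in RPFs (50.6% of all genes called) and 5 up and 8 down of 19 in RNA (41.9%): Bhlhe40, a repressor of E-box genes, fell by 1.43 in RNA (SE 0.17, adjusted p = 1.9e-05) and Nfil3, which competes with DBP for the D-box, by 0.85 (SE 0.17, adjusted p = 0.00090).

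Among the enzymes related to Noct, 6 rose and 1 fell of 9 tested in RPFs of BM mice on day 4 (median 0.28, against 0.01 over all genes, of which 50.6% were called), and 4 rose and 1 fell of 9 in RNA (41.9%). Cnot6, a catalytic subunit of the CCR4-NOT deadenylase, rose by 0.84 in RNA (SE 0.11, adjusted p = 1.5e-05) and by 0.86 in RPFs (SE 0.18, adjusted p = 0.0016). Cnot8 fell on both days, by 0.33 (SE 0.12, adjusted p = 0.044) and 1.39 (SE 0.23, adjusted p = 0.0016, and -1.72 without BM mouse 1) in RNA. On day 10, 2 of 9 rose and 1 fell in RPFs, where 46.7% of all genes were called, and without BM mouse 1, 3 rose and 2 fell (66.2%).

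Genes that respond to the known inputs of the liver clock were counted beside Per1 in BM mice, where 45.9% of all genes were called in RNA and 46.7% in RPFs on day 10, with medians over all genes of 0.04 and 0.03. BM mouse 1 of day 10 stood apart from both others in these genes as well. All 7 glucocorticoid-responsive genes were called higher on day 10 in RNA (median 2.31) and in RPFs (median 2.80), as they were without BM mouse 1 (medians 2.65 and 3.28, with 57.2% and 66.2% of all genes called). Their summed RNA was 1313 CPM in mouse 1, 5360 and 7022 CPM in mice 2 and 3, and 614 to 1044 CPM in WT. The sum is mostly that of Tat, a tyrosine aminotransferase, whose RNA in mouse 1 (597 CPM) lay within the range of WT (557 to 966 CPM) and in mice 2 and 3 above it (4093 and 5585 CPM). Sgk1, a kinase induced by glucocorticoids, was at 19.0 CPM in mouse 1, below every WT mouse (19.9 to 26.7 CPM), and at 89.5 and 180 CPM in mice 2 and 3. The other 5 genes were above every WT mouse in all 3 BM mice. Of the metallothioneins, Mt1 rose by 7.62 in RNA (SE 0.62, adjusted p = 0.00014) and Mt2 by 6.27 (SE 0.31, adjusted p = 4.2e-06), or by 7.80 and 6.47 without mouse 1. Zbtb16 rose by 3.18 (SE 0.45, adjusted p = 0.0015, and 3.56 without mouse 1). On day 4 none of the 7 rose, and 2 fell in RNA (41.9% of all genes called) and 4 in RPFs (50.6%), among them Tat (-2.20 in RNA, SE 0.29, adjusted p = 0.0015).

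Of the fasting-induced genes 5 rose and 1 fell among 10 tested in RNA of BM mice on day 10 (median 1.12), or 6 and 1 without mouse 1 (median 1.37). The 3 mice did not go the same way in the sum of this list. Mouse 1 had 1654 CPM of RNA, below every WT mouse of that day (2064 to 2777 CPM), and mice 2 and 3 had 5101 and 7080 CPM. In RPFs mouse 1 was again below WT, at 2617 CPM against 3346 to 4017 CPM, and mice 2 and 3 were above it at 9166 and 11502 CPM. Igfbp1, at 170, 1772 and 2853 CPM of RNA in BM and 15.4, 92.7 and 28.3 CPM in WT, had a log2 change of 5.11 (SE 1.12, adjusted p = 0.010, and 5.63 without mouse 1). Ppargc1a, at 42.8, 226 and 277 CPM against 19.6, 22.7 and 15.3 CPM, had one of 3.22 (SE 0.63, adjusted p = 0.0065, and 3.68 without mouse 1). On day 4 the list went both ways, 3 up and 4 down of 10 in RNA, where 41.9% of all genes were called.

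Genes that feeding induces fell on day 10, 6 of 8 in RNA (median -1.79) and 8 of 9 in RPFs (median -2.06), with none up, and without mouse 1 these were 8 of 9 and 9 of 9 (medians -2.55 and -2.97). On day 4, 2 of 8 rose and 2 fell in RNA (median 0.04, 41.9% of all genes called) and 4 of 9 fell in RPFs (median 0.03, 50.6%). The summed RNA of the list was below WT in BM of both days, at 5563 to 7568 CPM against 12286 to 20594 CPM on day 4 and 1752 to 2518 CPM against 25237 to 26477 CPM on day 10. On day 10 it was also lower in M (7581 to 11153 CPM) and B (7192 to 17659 CPM). The sum in WT of day 10 was mostly that of Scd1, at 22948 to 23759 CPM against 981 to 1142 CPM in BM. The sums of that day therefore follow this gene more than the list. Scd1 fell by 4.48 in RNA (SE 0.20, adjusted p = 2.6e-06, and -4.47 without mouse 1) and Me1 by 3.08 (SE 0.22, adjusted p = 2.6e-05, and -3.26 without mouse 1). Of the immediate-early genes 3 of 8 were called in RPFs on day 10, fewer than the 46.7% over all genes, and 4 of 8 without mouse 1 (66.2%). These 3 were Fos (2.35, SE 0.60, adjusted p = 0.019, and 1.48 without mouse 1), Btg2 (2.14, SE 0.46, adjusted p = 0.0096, and 2.395 without it) and Atf3 (2.06, SE 0.40, adjusted p = 0.0064, and 1.66 without it), all higher than in WT. On day 4, 4 of the 8 were lower in RNA (41.9% of all genes called), so these counts do not set the list apart. The part of these inputs, and of the fall in hepatocyte markers in the same mice, in the change of Per1 was not tested.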

How the data were processed

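RPFs and cytoplasmic RNA were measured in the same lysate of 24 livers. The authors trimmed RPF reads with cutadapt (1.18), removed duplicates with UMI-tools, aligned with BBmap to 1 transcript per gene (the most abundant, GENCODE vM27, GRCm39) and deposited counts of its coding bases without the first 20 and last 10 codons. RNA was depleted of rRNA, aligned with Bowtie2 (2.3.5.1) and quantified with RSEM (1.3.3). The authors deposited expected counts, TPM, FPKM and the percent of each isoform, of which FPKM and percent were not used here. The submitters' processing notes also name SAMtools (1.9) and R (4.3.1).

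Expected counts were summed per gene and rounded (at least 99.92% were whole), and 20614 of 20622 genes were named from GENCODE vM39. CPM used TMM factors, and log2 TE added 0.5 CPM. Tests were robust edgeR (4.0.16, R 4.3.3) quasi-likelihood fits with TMM within a library type, a filter of at least 10 reads (15 in total) and Benjamini-Hochberg adjustment over all genes, called at an adjusted p under 0.1. TE was the interaction of group and library type. The design gives both libraries of a number to 1 mouse, and they deviated together in all 24 mice (correlation 0.306 to 0.671, median 0.505), so mouse is a valid block for TE. Alternatives were DESeq2 (1.42.0), its size factors, no filter, all 8 groups in 1 fit, a replicate block, the spliced Noct transcript and leaving out each mouse. The fits were tested on simulated data. From each gene list the called genes with the largest changes were named, at most 3 in each direction and comparison. The members and lists were chosen with earlier results of these data known. Some genes of the lists are counted but not reported here by name.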

Additional observations from a re-analysis of the deposited data

Results flagged for a closer look

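For 10 results the effect of a genotype against WT differed between day 4 and day 10 by a test of the difference itself (edgeR, adjusted p under 0.1). Each value is the log2 effect on day 10 minus that on day 4, and the WT mice of each day are shared between genotypes. In BM mice the difference was 6.63 for Per1 RPFs (SE 0.94, adjusted p = 0.00066), 3.60 for Per1 RNA (SE 0.78, adjusted p = 0.0051) and 4.29 for Noct RPFs (SE 0.71, adjusted p = 0.0015), and these 3 were called in every refit without 1 mouse. Without BM mouse 1 of day 10 they were 6.95, 3.77 and 4.55. It was 4.02 for Noct TE (SE 0.78, adjusted p = 0.033, lost in 4 of 12 refits and against the spliced transcript, at 1.82, adjusted p = 0.76), 1.096 for Per2 RPFs (SE 0.42, adjusted p = 0.071, lost in 8 of 12 refits) and -0.54 for Clock RNA (SE 0.16, adjusted p = 0.029). These 3 were called without that mouse, at 4.07, 1.101 and -0.45. In B mice it was 3.23 for Per1 RPFs (SE 0.67, adjusted p = 0.010), 0.93 for Per2 RPFs (SE 0.32, adjusted p = 0.080, lost in 9 of 12 refits, with DESeq2, with all 8 groups in 1 fit and with the replicate block, adjusted p 0.11 to 0.13), -1.21 for Cry1 RPFs (SE 0.31, adjusted p = 0.025, or 0.15 with all 8 groups in 1 fit) and -1.10 for Nr1d2 RNA (SE 0.31, adjusted p = 0.047, lost without B mouse 1 of either day, WT mouse 3 of day 10 or WT mouse 1 of day 4). Part of the Per1 and Noct differences lies in WT, whose RPFs of both genes were lower on day 10 than on day 4.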

How the results depend on the processing

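Of 64 called values of members, 36 were called in every refit without 1 mouse and 28 were lost in at least 1. Called values lost numbered 14 with all 8 groups in 1 fit, 7 with a replicate block, 5 with DESeq2, 3 with no filter and 2 with DESeq2 size factors, all in the same direction, and 9, 12, 9, 6 and 0 values not called before were gained. The 14 were (adjusted p 0.12 to 0.43) Per1, Noct and Nr1d1 (RNA) in WT between the days, Clock RPFs in B between the days, Noct (RPFs and TE), Dbp RPFs and Cry1 RNA in BM on day 4, Noct and Nr1d1 RNA in M on day 4, Cry1 RNA in M and Nr1d2 RPFs in B on day 10, and the differences of Cry1 and Per2 RPFs in B. Dbp RNA, below the filter, gave 3 calls with no filter and 3 with all 8 groups in 1 fit. The block pairs the libraries of a mouse in TE, where it raised the called changes between the days from 0 to 2, as DESeq2 did (2). In RPFs or RNA alone the replicate numbers name different mice, and no pairing is implied. TE calls against WT went from 1 to 0 with all 8 groups in 1 fit and to 0 with the spliced Noct transcript, which also left 0 TE differences between the days and reversed Noct RNA in BM on day 4 (-0.35, adjusted p = 0.45). RNA differences between the days were 6 in place of 3 with no filter. Without 1 mouse the calls ranged from 12 to 19 (RPFs) and 12 to 18 (RNA) against WT, 11 to 14 and 7 to 11 between the days, and 4 to 8 and 2 to 5 for the differences, and TE calls from 0 to 3, 0 to 1 and 0 to 1. Without BM mouse 1 of day 10, pairs of members with an absolute r above 0.6 went from 2 to 1 in RNA and from 5 to 2 in RPFs. The cause was not tested. Low RNA counts of Dbp, Per1, Per2 and Per3 limit what could be seen.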
